A study of Mus musculus with 24 samples.

Results

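Claudin and tight junction genes were followed in livers of male C57BL/6 mice of wild-type genotype. C57BL/6 is a common inbred laboratory strain. The group holds 8 genes, Cldn1, Cldn2, Cldn3, Cldn12, Cldn14, Ocln, Tjp1 and F11r, out of 13686 in the count table, and all 8 were among the 11971 genes with enough counts to test. They were named as a family, and the family was selected on the level of Cldn1, which was lower in livers of the cottonseed oil diet than in those of the other oils. The values of Cldn1 that chose the family are therefore given as a description, without a test. The mice ate chow, or a diet enriched in cottonseed oil (abbreviated CSO), in olive oil (OO) or in safflower oil (SFO), for 6 weeks, and the labels give no age. The comparison of interest to the submitters was CSO with the other high-fat diets. In a comparison of such a diet with chow, the fat content and the kind of oil cannot be told apart. Liver messenger RNA was read as QuantSeq tags, which come from the 3′ end of transcripts. Counts were given for 6 libraries each of chow, CSO and OO, and for 5 of SFO. No label tells whether the samples of a diet came from separate animals, and the p-values rest on a spread between samples that may be technical.

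Tight junctions seal the space between neighbouring epithelial cells. Claudins span the membrane and set which ions and solutes pass, occludin and the junctional adhesion molecules sit beside them, and the zonula occludens proteins tie them to the actin cytoskeleton inside the cell. In liver, tight junctions between hepatocytes close the bile canaliculus and keep bile apart from blood, and bile duct cells carry junctions of their own. Claudins are sorted into those that tighten the barrier, such as claudin 1 and claudin 3, and those that form pores, such as claudin 2, which lets small cations and water through.

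The 250 bases before the start sites of Cldn1 and Cldn2 are shown because these 2 genes had the largest differences from chow in the family. All 8 genes were matched in the RefSeq promoter table of build GRCm38.p6, from which both stretches were taken. The counts were made on another build, and genes were joined by symbol alone. The Cldn1 stretch lies on the minus strand at chr16:26371840-26372089 and the Cldn2 stretch on the plus strand at chrX:139800558-139800807. Both are upstream of the annotated gene, and are written 5′ to 3′ with capitals for matches to the motifs listed after them.
Cldn1: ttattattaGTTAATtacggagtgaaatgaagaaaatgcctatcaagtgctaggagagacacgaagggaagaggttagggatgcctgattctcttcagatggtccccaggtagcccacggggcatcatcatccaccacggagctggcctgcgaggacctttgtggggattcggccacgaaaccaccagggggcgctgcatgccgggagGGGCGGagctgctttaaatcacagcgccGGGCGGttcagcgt
Cldn2: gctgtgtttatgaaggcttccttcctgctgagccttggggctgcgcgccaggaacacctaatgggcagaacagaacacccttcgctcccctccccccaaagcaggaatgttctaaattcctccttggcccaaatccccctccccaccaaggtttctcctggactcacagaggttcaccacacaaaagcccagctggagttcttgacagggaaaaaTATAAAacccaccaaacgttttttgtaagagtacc
Each motif was searched on both strands. The letters GGGCGG were taken for the GC box. For the E-boxes, CACCTG stood for the type bound by Snail proteins. The type bound by clock proteins was searched as CACGTG instead. The TATA box was searched as TATAAA in both directions. For HNF1, a transcription factor of hepatocytes, the letters GTTAAT of its recognition site were used. For nuclear receptors the letters AGGTCA of their common site were used. No matches overlapped. The Cldn1 stretch held GGGCGG 2 times, with first bases at -42 and -14 from the start site, and the HNF1 letters at -241, while the Cldn2 stretch held the TATA box letters at -35. Of 32851 mouse promoters cut to the same length, 32.7% held the GC box letters, 12.4% those of the TATA box and 6.43% those of the HNF1 site. The Snail type of E-box was in 17.2%, the clock type in 6.02% and the nuclear receptor site in 14%. The matches describe letters in these windows and were not tested against any diet. The bases just after the Cldn1 start matched a GENCODE transcript of the gene and those after the Cldn2 start did not, so the position of the Cldn2 window relative to the start used in liver is uncertain.

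Library totals ran from 5428649 counts (SFO 6) to 14930305 counts (chow 4). Levels are in CPM, the count of a gene relative to its library's total, corrected for library composition by TMM. The 8 hepatocyte markers summed to between 106000 CPM (CSO 1) and 186000 CPM (OO 3). The OO 3 library had the lowest composition factor (0.811). Skeletal muscle transcripts stood out in chow 3, chow 4, chow 5 and CSO 1, where Acta1, the skeletal muscle actin, passed 100 CPM. Without these 4 libraries, 3 chow libraries remain.

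Cldn1, the claudin that tightens the barrier, was highest with olive oil, followed by safflower oil, chow and cottonseed oil. Its level was 121 ± 37 CPM in OO (mean ± SD, n = 6), 96.5 ± 27.4 in SFO (n = 5), 54.6 ± 18 in chow (n = 6) and 39.7 ± 15.7 in CSO (n = 6). The lowest, median and highest CSO libraries were at 22.8, 36.4 and 65.9 CPM, and the OO libraries at 74.9, 116 and 186 CPM. Every CSO library was thus below every OO library. The SFO libraries were at 118, 57, 88.5, 127 and 92.7 CPM, so that SFO 2 alone fell within the CSO range, while 5 of the 6 CSO libraries were below all SFO libraries. The chow libraries had a lowest value of 27.5, a median of 52.9 and a highest of 76.1 CPM. Chow overlapped with all 3 oils, although 5 of 6 chow libraries were below every OO library and 4 of 6 below every SFO library. Neighbours in the order, CSO and chow, chow and SFO, and SFO and OO, overlapped each time.

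**Figure D1:**
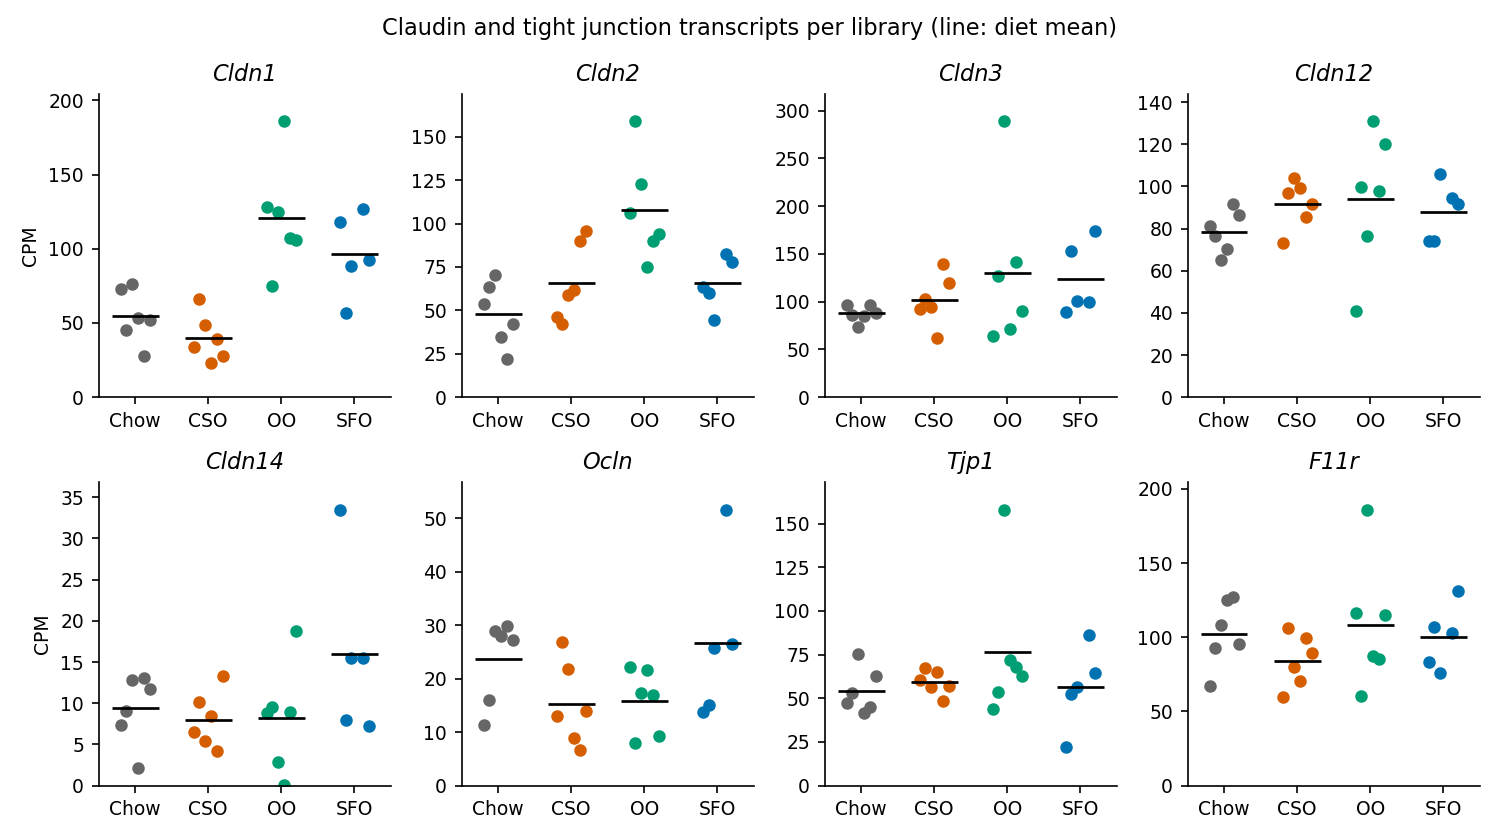
Level of each of the 8 genes in CPM (vertical axis, linear, from 0) in every library, by diet; each point is 1 library and the line is the diet mean. Cldn1 is between 22.8 and 65.9 CPM in CSO and between 74.9 and 186 CPM in OO, and Cldn3 and Tjp1 each have 1 OO library, OO 3, far above the others.

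On the log2 scale, Cldn1 in CSO was -1.44 ± 0.25 from the OO and SFO mean (± SE), -1.61 ± 0.27 from OO (0.328-fold) and -1.28 ± 0.28 from SFO (0.412-fold). These are the values behind the choice of the family. A fall with no overlap of libraries between CSO and OO was seen for 0.635% of all tested genes (76 of 11971), and nothing is read from Cldn1 being among them. Against chow, Cldn1 was 1.15 ± 0.27 higher in OO (2.22-fold), 0.82 ± 0.28 higher in SFO (1.77-fold) and at -0.46 ± 0.27 in CSO (0.728-fold, 95% interval 0.502 to 1.06). The chosen contrast shares the oil libraries with each of these, so they too are given without a test. Between SFO and OO, which the choice did not compare, the Cldn1 difference was -0.33 ± 0.28 (95% interval -0.89 to 0.23), with an adjusted p of 0.615 in edgeR's quasi-likelihood test, Benjamini-Hochberg adjusted over all tested genes. The interval leaves room for a level in SFO between 0.539 and 1.18 times that in OO. Without CSO 2, the CSO library with the most Cldn1, the difference from the OO and SFO mean was -1.65, and without CSO 4 it was -1.33.

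Cldn2, the pore-forming claudin, was higher with olive oil than with chow. Its level was 108 ± 29.7 CPM in OO and 47.7 ± 18.3 in chow (mean ± SD, n = 6 each), against 65.8 ± 22.2 in CSO (n = 6) and 65.5 ± 15.1 in SFO (n = 5). The chow libraries had a lowest value of 21.9, a median of 48.1 and a highest of 70.4 CPM, and the OO libraries 74.7, 100 and 159 CPM. All 6 OO libraries were above all 6 chow libraries, which was so in this direction for 0.977% of tested genes. The rise was 1.17 ± 0.27 on the log2 scale, or 2.25-fold (95% interval 1.55 to 3.28), with an adjusted p of 0.0112 in edgeR's quasi-likelihood test. With each library left out in turn the rise stayed between 1.03 and 1.32, with adjusted p between 0.00819 and 0.042. Without the 4 libraries rich in muscle transcripts it was 1.01 ± 0.33 and the adjusted p was 0.217, with 3 chow libraries left. Mean Cldn2 in those 3 chow libraries was 53.3 CPM, and in the other 3 it was 42.2 CPM.

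In CSO, Cldn2 lay between chow and OO, from 42.4 to 95.6 CPM with a median of 60.3. The 5 SFO libraries were at 63.5, 60.1, 44.3, 82.2 and 77.7 CPM. The CSO and SFO ranges overlapped with chow and with OO. The difference from chow was 0.46 ± 0.27 in CSO (adjusted p = 0.9996) and 0.46 ± 0.28 in SFO (adjusted p = 0.796), neither past the threshold. SFO against OO gave -0.72 ± 0.28 (adjusted p = 0.196, 95% interval -1.28 to -0.15), so a difference between these oils was not established over all genes, although 5 of 6 OO libraries were above every SFO library. CSO against OO, given as a description, was -0.71 ± 0.27. Against SFO the CSO value was 0.01 ± 0.28, where Cldn1 had -1.28 ± 0.28.

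The 2 claudins did not order the libraries alike. Within OO, the library with the least Cldn1 (OO 2, 74.9 CPM) had the most Cldn2 (159 CPM), and the library with the most Cldn1 (OO 4, 186 CPM) had the least Cldn2 (74.7 CPM). In CSO, CSO 6 had 27.9 CPM of Cldn1 and 95.6 CPM of Cldn2, and CSO 2 had 65.9 and 42.4 CPM. Pearson's r between their log2 CPM over the 23 libraries was 0.44, and 0.07 after each diet's mean was taken off. Both genes of a library share its depth and scaling, and r is a description.

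**Figure D2:**
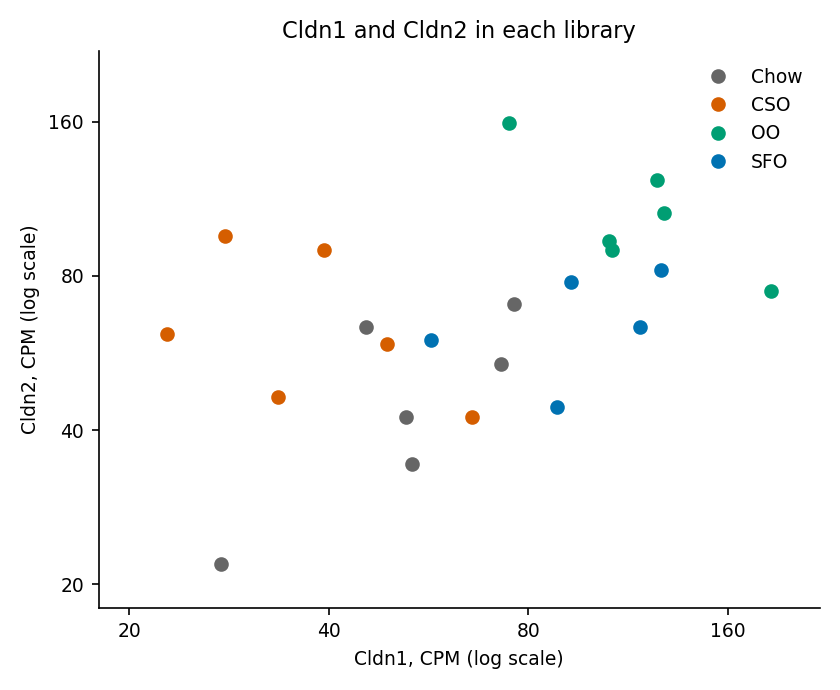
Cldn1 (horizontal) against Cldn2 (vertical), both in CPM on log axes, with 1 point per library coloured by diet. The OO libraries are at the top, at or above 74.7 CPM of Cldn2, and CSO libraries reach 95.6 CPM of Cldn2 at low Cldn1.

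Of the other claudins, none passed the test in any comparison with chow or between SFO and OO. Cldn3, a barrier-tightening claudin of hepatocytes and bile ducts, was at 87.7 ± 8.72 CPM in chow, 102 ± 26 in CSO, 130 ± 83.4 in OO and 124 ± 37.3 in SFO. The chow libraries lay within 73.3 to 96.8 CPM, whereas the OO libraries spread from 64.1 to 289 CPM around a median of 109. The highest OO value was that of OO 3, and the next was 141 CPM in OO 5. Cldn3 in OO against chow was 0.57 ± 0.26 (adjusted p = 0.241, edgeR), and 0.17 without OO 3. The 5 SFO libraries were at 89.5, 153, 101, 100 and 174 CPM. Of these, 4 were above all chow libraries, and the difference was 0.49 ± 0.27 (adjusted p = 0.711).

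Cldn12, a claudin linked to calcium passage in other epithelia, was at 78.6 ± 9.91 CPM in chow, 91.8 ± 11 in CSO, 94.2 ± 32.2 in OO and 88.1 ± 13.9 in SFO. All diets overlapped, the OO libraries reached from 41.1 to 131 CPM, and the difference from chow was between 0.17 ± 0.23 (SFO) and 0.26 ± 0.22 (OO). Against the OO and SFO mean, Cldn12 in CSO was 0.01 ± 0.20, given as a description, since this contrast chose the family. Cldn14, a barrier-forming claudin known for its part in hearing, had few counts and was at 9.38 ± 4.17 CPM in chow, 8.02 ± 3.34 in CSO, 8.19 ± 6.47 in OO and 16 ± 10.6 in SFO. OO 4 had 1 count (0.107 CPM) and SFO 1 the most (33.5 CPM). Its SE reached 0.66 to 0.69 on the log2 scale, and the interval for SFO against chow ran from -0.62 to 2.16, so its direction was not determined. The counts in SFO ran from 38 to 342, and the libraries of a diet spread widely.

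Occludin, a membrane protein beside the claudins encoded by Ocln, had a lower mean in CSO and OO than in chow, without passing the test. It was at 23.6 ± 7.84 CPM in chow, 15.2 ± 7.76 in CSO, 15.9 ± 6.03 in OO and 26.6 ± 15.2 in SFO. In chow, 4 of 6 libraries were above every CSO and every OO library, but chow 1 (11.4 CPM) and chow 2 (16 CPM) fell among them. The differences from chow were -0.64 ± 0.44 in CSO (adjusted p = 0.9996) and -0.57 ± 0.44 in OO (adjusted p = 0.57), and 0.17 ± 0.46 in SFO. They were, with the 4 libraries rich in muscle transcripts left out, -0.23 ± 0.61 in CSO, -0.20 ± 0.59 in OO and 0.55 ± 0.62 in SFO. Mean Ocln was 28.9 CPM in the 3 chow libraries with muscle transcripts and 18.2 CPM in the 3 without, and 3 of the 4 chow libraries above every CSO and OO library were among the former.

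Tjp1, which encodes the scaffold protein ZO-1, was at 54.2 ± 12.8 CPM in chow, 59.2 ± 6.83 in CSO, 76.3 ± 41.1 in OO and 56.3 ± 23.3 in SFO. The CSO libraries were close together, from 48.5 to 67.4 CPM. In OO the lowest was 44 and the median 65.1 CPM, while OO 3 stood at 158 CPM. The difference of OO from chow was 0.49 ± 0.29 (adjusted p = 0.412), and 0.15 without OO 3. F11r, which encodes the adhesion molecule JAM-A, was at 102 ± 22.5 CPM in chow, 84.1 ± 17.4 in CSO, 108 ± 43.5 in OO and 100 ± 21.5 in SFO. Its highest library was again OO 3 (186 CPM), its difference from chow was 0.08 ± 0.23 in OO and -0.28 ± 0.23 in CSO, and the sign of the OO value turned without OO 3 (-0.14). Without the 4 libraries with muscle transcripts the OO value was 0.35 ± 0.30, the SFO value turned from -0.03 to 0.25 and the CSO value turned to 0.06. Mean F11r was 120 CPM in the 3 chow libraries with those transcripts and 84.9 CPM in the other 3.

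Counted over the family, 2 of 8 genes passed the test in OO against chow, both higher, where 2.64% of all tested genes were called (316 of 11971). Of these 2, Cldn1 is no independent result, and of the other 7 genes 1, Cldn2, passed. Another of the 7, Cldn3, had an unadjusted p under 0.05. Cldn2 did not pass without the 4 libraries with muscle transcripts. In SFO against chow 0 of the 7 genes other than Cldn1 passed, with a background of 0.835%, and 0 had an unadjusted p under 0.05. In SFO against OO, where Cldn1 was tested too, 0 of 8 passed, with a background of 1.06%, and 1, Cldn2, had an unadjusted p under 0.05. In CSO against chow 0 of 7 passed, with a background of 0.409%, and 0 had an unadjusted p under 0.05. The share of all genes at an unadjusted p under 0.05 is not given here. DESeq2's Wald test and limma voom also called 0 members in these 3 comparisons. The median log2 difference of the 7 genes other than Cldn1 was 0.26 in OO against chow, 0.17 in SFO against chow and 0.13 in CSO against chow. Over all tested genes the medians were 0.07, 0.01 and -0.02. The comparisons with chow share the chow libraries.

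**Figure D3:**
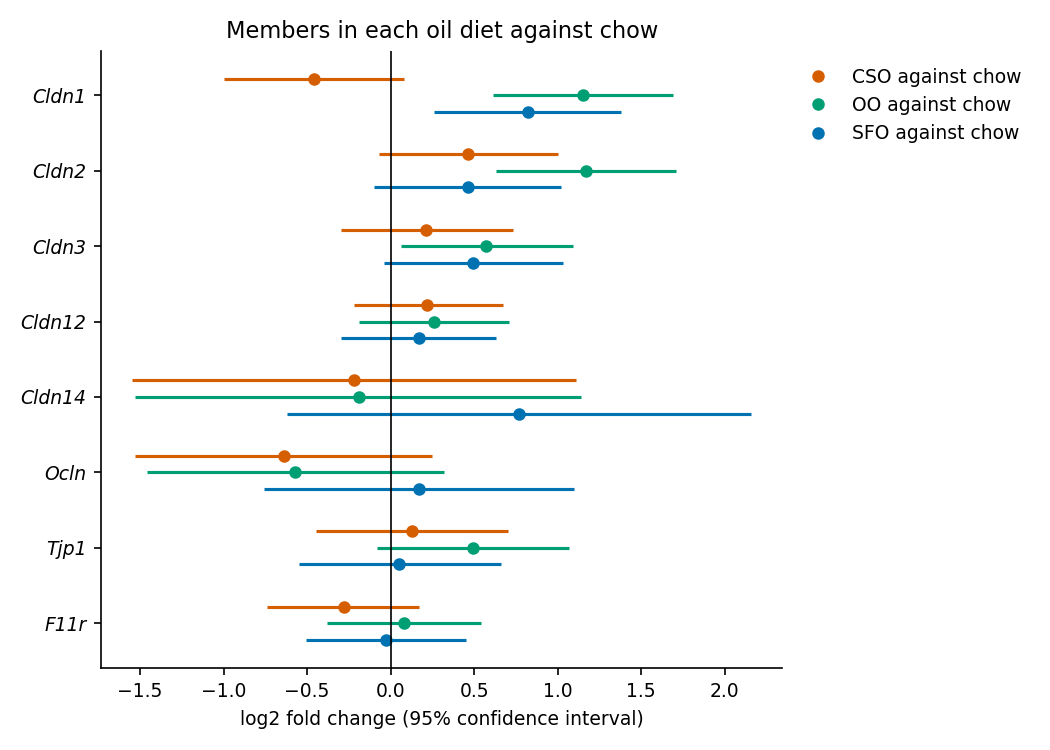
Log2 fold change of each gene against chow (horizontal axis) with its 95% confidence interval, for CSO, OO and SFO. Cldn1 is at 1.15 in OO, 0.82 in SFO and -0.46 in CSO, and Cldn2 at 1.17 in OO and 0.46 in both CSO and SFO.

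The authors' deposited table for OO and chow gives a log2 fold change of 1.17 for Cldn2 (adjusted p = 0.00167, DESeq2) and 1.14 for Cldn1, with sign turned to oil over chow. Of the 8 genes, 2 have in that deposited table an adjusted p under 0.05, where 5.32% of all genes with one do (683 of 12834). Cldn1, which chose the family, is among them, and of the other 7 genes 1 has such a p. With Cldn1 counted, the authors' deposited tables hold 0 of 7 genes with an adjusted p under 0.05 for CSO and 0 of 8 for SFO. Cldn14 has no adjusted p in the CSO table. The shares of all genes called in the CSO and SFO tables are not given here. For Cldn1 the authors' deposited tables give -0.466 in CSO and 0.837 in SFO.

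Cldn1 levels varied with the daily clock genes of the livers. A clock score was formed with the library values already known. It is the log2 ratio between 2 sets of genes that peak at opposite times of day, with Dbp, Tef, Ciart, Per2 and Per3 on top and Arntl, Clock, Nfil3 and Npas2 below. It was 3.92 ± 0.64 in CSO, from 2.90 to 4.82, and spread more widely in chow (1.48 ± 1.76), OO (1.21 ± 1.54) and SFO (1.71 ± 2.37). Over the 23 libraries, log2 CPM of Cldn1 had a Pearson r of -0.67 and a Spearman rho of -0.68 with the score. The r was -0.64 after the diet means were taken off and -0.72 without chow 1 and SFO 5, whose scores were farthest from the median. No p is given, since Cldn1 was chosen on some of these libraries. With the score as a covariate, Cldn1 in CSO was -0.95 ± 0.26 from the OO and SFO mean, and 0.03 ± 0.29 from chow, where it was -0.46 without the score. OO against chow remained at 1.09 ± 0.25. The labels used here give no time of day, so a diet effect on the clock and a different hour of collection cannot be told apart. The other 7 genes had r between -0.32 (Ocln) and 0.19 (Cldn12) with the score.

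Cldn2 levels varied with markers of the hepatocytes around the central vein, where claudin 2 is known to be more abundant in rodent liver. The summed CPM of 12 pericentral markers was 10100 ± 1530 in chow, 14000 ± 2540 in CSO, 14700 ± 2200 in OO and 10600 ± 1330 in SFO. In OO against chow, 9 of the 12 had a positive log2 value and 3 a negative one. Of the 12, 5 were called, all higher (Gulo, Lect2, Rgn, Cyp2e1 and Glul), against 2.64% of all genes. Without the 4 libraries with muscle transcripts 3 were called, Gulo, Lect2 and Rgn, and without OO 3 these 3 as well. Calls were not confined to OO. In CSO against chow 2 were called higher (Cyp2e1 and Gulo), against 0.409% of all genes. In SFO against chow 1 was called higher (Lect2), against 0.835%. The 12 periportal markers summed to 13400 ± 1940 CPM in chow and 12600 ± 1220 in OO, with 1 called higher (Pigr) and 1 lower (Cyp2f2). Neither was called without the 4 libraries, and Pigr alone was called without OO 3. Log2 CPM of Cldn2 had a Pearson r of 0.63 and a Spearman rho of 0.70 with the log2 pericentral sum over 23 libraries, 0.43 within diets, and 0.56 without chow 6 and OO 3. The CSO libraries had nearly the pericentral sum of OO at a lower Cldn2 level (65.8 against 108 CPM). The other members had r between -0.53 (Ocln) and 0.26 (Tjp1) with the pericentral sum, with Cldn14 at -0.38 and Cldn1 at -0.05. Whether the pericentral share of the tissue has a part in the Cldn2 rise was not tested.

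**Figure D4:**
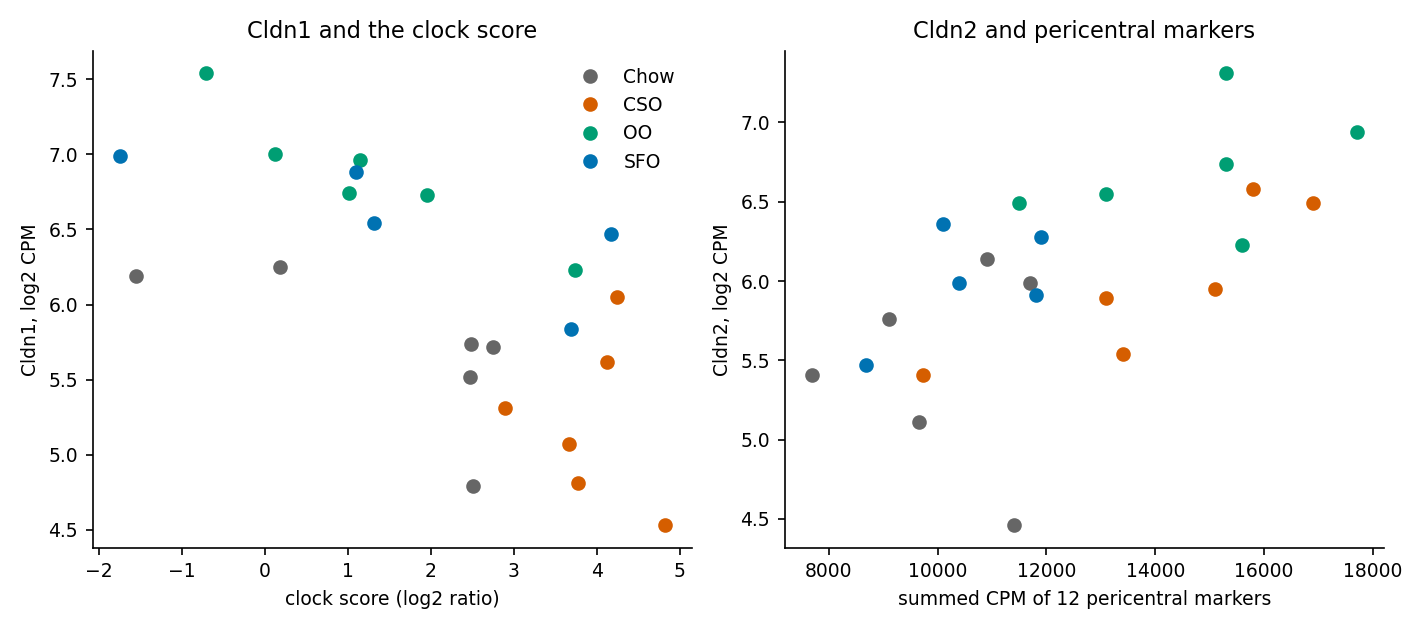
Left, log2 CPM of Cldn1 against the clock score (log2 ratio); right, log2 CPM of Cldn2 against the summed CPM of 12 pericentral markers; each point is 1 library, coloured by diet. The CSO libraries sit at clock scores from 2.90 to 4.82 with low Cldn1, and the OO libraries at pericentral sums from 11500 to 17700.

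No marker of bile duct or endothelial cells, which carry tight junctions of their own, was called in OO against chow. Of 12 cholangiocyte markers 7 could be tested, of which 0 had an unadjusted p under 0.05 and all had a negative log2 value (median -1.31). Their summed level ran from 66.1 to 115 CPM in chow, 73.3 to 94 in CSO, 35 to 96.9 in OO and 76.2 to 155 in SFO. Of 10 endothelial markers 3 had an unadjusted p under 0.05, and their sum was 197 to 252 CPM in chow and 104 to 346 in OO. The 8 hepatocyte markers summed to 133000 ± 14200 CPM in chow and 156000 ± 17800 in OO, with 0 called and 4 at an unadjusted p under 0.05. No share of all genes at an unadjusted p under 0.05 is given beside these counts. The 9 tested muscle markers ran from 8.75 to 2640 CPM in chow and 0.534 to 15.9 in OO, and 8 were called lower in OO. In bulk tissue, fewer cells of a type and less RNA per cell cannot be told apart.

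Across all 28 pairs of the 8 genes, r between log2 CPM over the 23 libraries ran from -0.41 (Cldn2 and Ocln) to 0.44 (Cldn1 and Cldn2), with a median of 0.06. Cldn3 and Tjp1 had an r of 0.43, and 0.04 without OO 3. Of the 28, 0 had an r over 0.5. The 5 genes most like Cldn1 among 9474 genes were Insig2 (r = 0.852), which restrains sterol-regulated transcription, Gldc (0.828), the glycine decarboxylase, and Abcb11 (0.814), the bile salt export pump. Tars (0.807), a threonyl-tRNA synthetase, and Trf (0.803), transferrin, followed. After the diet means were taken off, these 5 values were between 0.531 and 0.737. Insig2 had 352 ± 116 CPM in OO and 129 ± 33.6 in CSO, and Gldc 202 ± 33.7 and 93.4 ± 32.5. The 5 most like Cldn2 were Pter (0.861), Map4 (0.834), a microtubule-binding protein, Eef2 (0.824), a translation elongation factor, Scly (0.798), the selenocysteine lyase, and Fn1 (0.795), fibronectin. Pter was at 141 ± 35.2 CPM in OO and 54.2 ± 12.8 in chow. These are the highest of many values over libraries that share the diets, and they carry no test.

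Few other genes of the tight junction were called, and a gene without a call may still differ. Of 50 other genes listed, 32 could be tested. In OO against chow 1 was called higher and 0 lower, where 2.64% of all genes were called, so 1 of 32 is close to that share. In SFO against chow, SFO against OO and CSO against chow 0 were called, where 0.835%, 1.06% and 0.409% of all genes were. In CSO against the OO and SFO mean 1 was called lower, where 0.727% of all genes were called. At an unadjusted p under 0.05 there were 5, 3, 7, 0 and 5 genes in these comparisons in that order. The share of all genes at that level is not given here, so nothing is read from these counts. The median log2 difference of the 32 genes in OO against chow was 0.02, beside 0.07 over all genes, with 17 values positive and 15 negative.

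The gene called higher in OO was Cxadr, which encodes a junctional adhesion protein also used as a virus receptor. Its level was 186 ± 101 CPM in OO and 106 ± 15.4 in chow, and the change was 0.81 ± 0.23 (adjusted p = 0.0448). The OO libraries spread from 80.1 to 353 CPM, with OO 3 the highest, and overlapped with chow, which ran from 80.4 to 125 CPM. Without OO 3 the value was 0.53 with an adjusted p of 0.191, and 13 of the 23 single libraries left out ended the call (each chow library, CSO 1, 3, 4 and 6, and OO 1, 3 and 4). The gene called lower in CSO was Tjp3, which encodes ZO-3, a scaffold related to ZO-1. It was at 23.2 ± 8.62 CPM in CSO (15.1 to 36.2), 64.5 ± 33.2 in OO and 49.2 ± 22.6 in SFO, and 34.9 ± 8.6 in chow. The difference from the OO and SFO mean was -1.28 ± 0.32 (adjusted p = 0.038, where 0.727% of all genes were called). The family was chosen by Cldn1 in this same contrast, so nothing is read from the direction that Tjp3 shares with Cldn1. With single libraries left out it ran from -1.45 to -1.17, and its adjusted p from 0.0101 to 0.141, with the call ended without any 1 of CSO 1 to 5, OO 4, SFO 1, SFO 2 and SFO 5. Without the 4 libraries with muscle transcripts the adjusted p was 0.178, and with the clock score as a covariate it was 0.267.

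**Figure D5:**
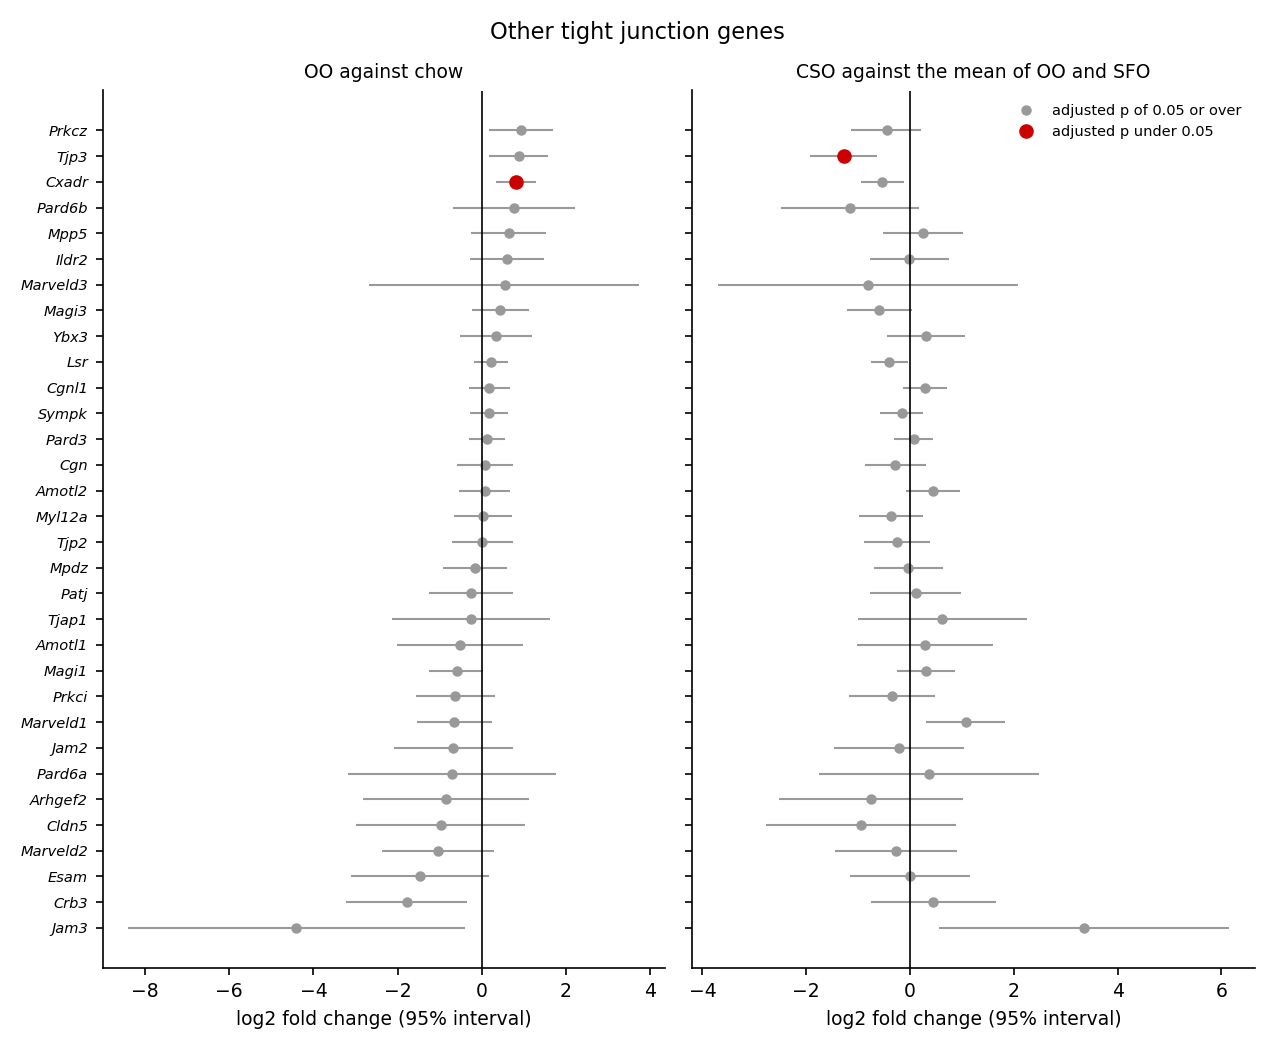
Log2 fold change with 95% interval (horizontal axis) of the 32 tested other tight junction genes, for OO against chow (left) and CSO against the OO and SFO mean (right), ordered by the left panel. Red points mark an adjusted p under 0.05, reached by Cxadr on the left (0.81) and Tjp3 on the right (-1.28).

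Neighbouring structures of the hepatocyte border were examined in the same fit. Beside 2.64% of all genes, 1 of 20 genes of adherens junctions, gap junctions and desmosomes was called in OO against chow. This was Ctnnb1, encoding β-catenin, which links cadherins to actin, at 354 ± 72 CPM in OO and 231 ± 26.8 in chow (0.62 ± 0.15, adjusted p = 0.0184, and 0.0536 without chow 4). The call also ended with library totals (0.42, adjusted p = 0.107), voom (0.50, adjusted p = 0.108) and a fit of the compared diets alone (adjusted p = 0.0545). Its SFO against OO value was -0.58 ± 0.16 (adjusted p = 0.0542). Of 17 tested genes of the bile canaliculus, the channel that these junctions close, 2 were called higher in OO against chow, beside 2.64% of all genes. The same 2 were called lower in SFO than in OO, beside 1.06% of all genes. Without OO 3, 0 of the 17 were called in OO against chow. Abcb11 was at 1080 ± 243 CPM in OO, 716 ± 83.8 in chow, 684 ± 141 in SFO and 495 ± 86.6 in CSO. It rose by 0.59 ± 0.14 in OO against chow (adjusted p = 0.015), differed by -0.66 ± 0.15 between SFO and OO (adjusted p = 0.0207), and by -0.79 ± 0.13 between CSO and the OO and SFO mean (adjusted p = 0.000133). In the last of these contrasts the adjusted p was 0.00331 without the 4 libraries with muscle transcripts and 0.0633 with the clock score. That contrast chose the family by Cldn1, which Abcb11 resembled over the libraries (r = 0.814), so the call is not independent of the choice. Without OO 3, Abcb11 in OO against chow was 0.48 (adjusted p = 0.0552). In SFO against OO the call ended without OO 3, SFO 2 or SFO 3, with adjusted p up to 0.0686, and with voom (0.0793) and the compared diets alone (0.2). With library totals the OO against chow value was 0.39 (adjusted p = 0.0814). Anpep, an aminopeptidase of the canalicular membrane, was at 312 ± 159 CPM in OO and 174 ± 14.6 in chow (0.84 ± 0.19, adjusted p = 0.00989), and at 184 ± 13.3 in SFO (-0.76 ± 0.20 against OO, adjusted p = 0.0455). Its OO values ranged from 195 to 595 CPM, the highest in OO 3, without which the adjusted p against chow was 0.0621. That call also ended with voom (0.51, adjusted p = 0.159) and with the compared diets alone (adjusted p = 0.0627). The SFO against OO call of Anpep ended with 18 of the 23 single libraries left out, and without OO 3 it was -0.47 (adjusted p = 0.174). It ended as well with DESeq2's size factors (adjusted p = 0.0576), library totals (0.107), voom (0.554), the compared diets alone (0.348), the replicate block (0.0646) and without the 4 libraries (0.0916). Without the 4 libraries with muscle transcripts, none of Ctnnb1, Abcb11 and Anpep passed in OO against chow (adjusted p = 0.315, 0.266 and 0.193).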

How the data were processed

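Raw gene counts were deposited by the authors, with 1 further table per oil diet of log2 fold changes and p-values, chow over oil, whose sign was turned here. The submitters' processing notes name Trimmomatic, STAR 2.7.1a, HTSeq 0.9.1, DESeq2, DESeq and the genome build mm39. Whether counting used strand is not known here. There are 24 labelled samples. SFO 4, which the submitters set aside as an outlier with possible contamination, was not analysed here, which leaves 23 libraries.

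edgeR 4.0.16 in R 4.3.3 was run on the counts (TMM scaling, filterByExpr, robust quasi-likelihood F test, the 4 diets in 1 fit with diet as the only term). Adjusted p is Benjamini-Hochberg over 11971 genes, which hold 99.9% of the counts, and 0.05 was the threshold. A prior count of 2 went into log2 CPM. DESeq2 1.42.0 and limma 3.58.1 (voom) gave alternatives, and figures were drawn with matplotlib 3.10.9. The procedure was tested on simulated counts, with 100 genes changed 2-fold and 100 changed 4-fold in each comparison. Of the 2-fold changes 16 (SFO against OO) to 28 (CSO against the OO and SFO mean) were recovered, and of the 4-fold changes 41 to 48. False calls were 3 of 60 in SFO against OO, 6 of 68 in OO against chow and 7 of 83 in CSO against the OO and SFO mean. Many changes of these sizes were therefore missed, and a gene without a call may still differ. The changed genes were drawn at random from all tested genes, so the rates describe that mix of levels and not the members.

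The members, the gene lists and the clock score were chosen with earlier results of these data known. Named were all members, the called genes of 3 lists (other tight junction genes; adherens, gap junction and desmosome genes; bile canaliculus genes), and the 5 genes most correlated with Cldn1 and with each called member, predicted genes skipped. Other settings were DESeq2's size factors, library totals, DESeq2's Wald test, voom with quality weights, a filter switched off, a filter of 10 counts in 5 libraries, a fit of the compared diets alone, a replicate block and each library left out. Leaving out libraries with Acta1 over 100 CPM and the clock score as a covariate were added after the data were seen. Same-numbered libraries of different diets did not deviate together.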

Additional observations from a re-analysis of the deposited data

Results flagged for a closer look

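In 2 of the 32 combinations of gene and diet looked at, 1 library stood apart from the others of its diet by the gap to its nearest neighbour, and chance gives about 1 in 20. Cldn3 was at 289 CPM in OO 3, and the other OO libraries were between 64.1 and 141 CPM. Tjp1 was at 158 CPM in OO 3, and the other OO libraries were between 44 and 72.1 CPM. OO 3 also had the lowest composition factor of all libraries (0.811) and the highest OO values of Cxadr (353 CPM), Tjp3 (108 CPM) and Anpep (595 CPM). Its Cldn1 (125 CPM) and Cldn2 (123 CPM) were within the range of the other OO libraries. Whether the library's composition has a part in the high Cldn3 and Tjp1 values was not tested.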

How the results depend on the processing

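The Cldn1 difference between CSO and the OO and SFO mean chose the family, so its sign on these libraries is no independent result. It ran from -1.65 to -1.33 with single libraries left out and was -0.95 with the clock score. The number of members called in OO against chow was 2 under every setting except without the libraries with Acta1 over 100 CPM, where it was 0. The 2 were Cldn1, which chose the family and is no independent result, and Cldn2. Without those libraries Cldn1 was 1.09 ± 0.34, beside 1.15 ± 0.27 with all libraries. Cldn2 was 1.01 ± 0.33, beside 1.17 ± 0.27. The share of all genes called without those libraries is not given here. The number of other tight junction genes called in OO against chow was 0 with DESeq2's size factors, library totals, voom, only the diets compared, the replicate block, without the Acta1 libraries and with the clock score, and 2 with DESeq2's Wald test. With single libraries left out it was 0 to 1. In SFO against OO it was 1 with DESeq2's Wald test. In CSO against the OO and SFO mean it was 0 with library totals, only the diets compared, without the Acta1 libraries and with the clock score, 2 with voom, and 0 to 1 with single libraries left out. The replicate block was void as a pairing, since r between deviations of same-numbered libraries ran from -0.0433 to 0.0532 over 33 pairs and 3 of 23 libraries were closest to their own number. With it, Cldn2 in OO against chow was 1.17 (adjusted p = 0.0173, edgeR).

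Directions turned only for differences that passed no test and for Cldn1 in CSO against chow, which was given without a test. The cause of the turns was not tested. Cldn1 in CSO against chow was -0.46 ± 0.27 without the clock score and 0.03 with it. In SFO against OO, Cldn3 was 0.08 with library totals, 0.11 with voom and -0.23 to 0.32 with single libraries left out. Cldn12 was 0.02 with library totals and -0.25 to 0.03, and F11r 0.04 and -0.23 to 0.11. In OO against chow, F11r was -0.13 with library totals, -0.02 with voom and -0.14 to 0.21, and Cldn14 was -0.62 to 0.06. In SFO against chow, F11r was 0.25 without the Acta1 libraries and -0.15 to 0.05, Tjp1 was -0.01 with voom and -0.16 to 0.26, and Ocln was -0.22 to 0.33. In CSO against chow, F11r was 0.06 without the Acta1 libraries and Cldn14 0.01 with the replicate block. Library totals moved the median of all genes in OO against chow by -0.186 on the log2 scale, and Cldn2 was then 0.98 (adjusted p = 0.0401).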
